A study of Mus musculus with 12 samples.

Results

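Acta2, Tagln, Cnn1, Cnn2, Myl9, Tpm1, Tpm2, Actg2 and Myh9 are 9 genes of the actomyosin apparatus that smooth muscle shares with stress fibres, and all 9 had their highest group mean in cultured astrocytes. They were chosen by their measured levels in these same samples, after their high values in astrocytes were known, so their own levels are given as a description with no test. The 9 genes were found by name among the 55862 genes of the deposited expression table, 1 row each.

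RNA of mice was sequenced in 12 samples, in 4 groups of 3. The labels give C57BL/6 for all samples, whereas the study's methods name C57BL/6J mice for both NPC groups. The ASTs were astrocytes cultured from the cortex of early postnatal pups after removal of the meninges, grown as a monolayer with serum and collected at day 0. A-iSCs were the same kind of astrocytes after 5 days as spheres on agarose, which keeps cells from attaching. P56-NPCs were a fresh suspension of the adult subependymal zone (postnatal day 56), P0-NPCs a suspension of the newborn hippocampus (postnatal day 0), and both served as the study's positive controls for neural precursor cells. No label names a transgene or a deletion, and none says that replicates came from separate cultures or animals, so their spread may be technical. Levels are in FPKM, the number of sequenced fragments on a gene divided by its length and by library size. They can therefore be set side by side between genes.

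In smooth muscle, actin and tropomyosin form the thin filament, calponins and transgelin bind along it, and type II myosin pulls on it when its regulatory light chain is phosphorylated. Cells that are not muscle build the same parts into stress fibres when they spread on a stiff surface. Many of these genes are targets of serum response factor (SRF), which binds the CArG box and is switched on by myocardin-related cofactors (Mrtfa, Mrtfb) when monomeric actin is used up. Acta2 is also known as a marker of myofibroblasts and of the mural cells of vessels.

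Promoters were read from the RefSeq windows of the mouse build GRCm38.p6, 250 bases before to 50 bases after the start of a gene. Such a window was at hand for 7 of the 9 genes, all but Tagln and Actg2. The search covered both strands for the CArG box (CC, 6 bases that are A or T, GG), for the same box with 1 of the middle bases G or C, for the MCAT motif CATTCC and for TATAAA. A CArG box of either kind was found in 3 of the 7 windows, and the 250 bases before the start are shown for these 3 genes, 5′ to 3′ on the strand of the gene, with each CArG box in capitals. The windows are chr19:34255374-34255623 on the minus strand for Acta2, chr10:79988350-79988599 on the plus strand for Cnn2 and chr2:156775214-156775463 on the plus strand for Myl9.
Acta2: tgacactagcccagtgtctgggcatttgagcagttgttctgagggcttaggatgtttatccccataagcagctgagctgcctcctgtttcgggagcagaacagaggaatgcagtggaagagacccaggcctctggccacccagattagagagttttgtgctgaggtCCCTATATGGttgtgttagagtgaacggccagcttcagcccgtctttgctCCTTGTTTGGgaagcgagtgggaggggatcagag
Cnn2: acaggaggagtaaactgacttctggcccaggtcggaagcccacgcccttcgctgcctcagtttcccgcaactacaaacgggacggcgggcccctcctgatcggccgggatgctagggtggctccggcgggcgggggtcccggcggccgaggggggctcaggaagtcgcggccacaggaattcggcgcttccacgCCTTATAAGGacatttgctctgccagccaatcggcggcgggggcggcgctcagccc
Myl9: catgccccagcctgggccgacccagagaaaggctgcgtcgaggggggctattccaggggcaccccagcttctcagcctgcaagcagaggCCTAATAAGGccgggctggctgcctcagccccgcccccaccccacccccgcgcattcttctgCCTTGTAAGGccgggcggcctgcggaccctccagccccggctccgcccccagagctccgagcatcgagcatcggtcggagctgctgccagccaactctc

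Acta2 held 2 boxes with 1 G or C, which began 84 and 34 bases before the start. Cnn2 held an exact box 56 bases before the start. Myl9 held an exact box 161 bases and a box with 1 G or C 99 bases before it. Of all 32851 windows in the table, 1.63% held an exact CArG box, 8.5% the box with 1 G or C, and 9.98% either. MCAT was found in Acta2 (146 bases before the start) and Tpm1 (56 bases), both on the other strand, beside 14.7% of all windows. TATAAA was found only in Myh9 (123 bases, also on the other strand), beside 13.6% of all windows. Neither Cnn1 nor Tpm2 held any of these letters in its window, which says nothing of sites elsewhere. These distances are from the RefSeq starts. The deposited table places the starts of Acta2, Cnn2 and Myl9 217, 16 and 44 bases farther upstream, inside the printed windows, so the 2 annotations differ in where these 3 genes start.

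The 12 libraries held 17077780 to 24452419 fragments on genes, and 3 fragments on a gene of 1 kilobase came to 0.103 to 0.187 FPKM, a limit of counting alone. Libraries did not agree equally well within groups. P56-NPC replicate 3 had 99 protein-coding genes at 4 or more times the level of both other replicates, against 1 to 14 such genes in each of the other 11 libraries, and Actg2 and Cnn1 were among the 99. The 14 genes farthest apart in it included Reg3b, Agr2, Zg16 and Pigr, which are known from the lining of the gut. These 14 were at 4.99 to 45.5 FPKM in that library and at 0.794 or less in the other 11. Their part in the values of the contractile genes was not tested, and the sums, counts and folds that it moves most are also given without it, a choice made after the data were seen.

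AST replicate 2 and A-iSC replicate 3 differed from their partners along gene length. Over genes of at most 1500 bases the median of AST replicate 2 lay 0.50 above the other AST replicates on the log2(FPKM + 1) scale, and over genes longer than 6000 bases it lay at -0.16. A-iSC replicate 3 ran the other way, with medians of -0.31 and 0.26. The groups also differed in other cells. Markers of mature astrocytes summed to 121 to 136 FPKM in ASTs and to 1193 to 2425 in A-iSCs, and markers of microglia to 154 to 197 and 1732 to 2537, so the label astrocyte went with lower astrocyte markers than the spheres had. P56-NPCs carried oligodendrocyte markers at 8264 to 9381 FPKM in sum and neural progenitor markers at 167 to 195, lower than the 702 to 858 of ASTs. Their part in the results below was not tested, and in bulk RNA fewer cells of a type and less RNA per cell cannot be told apart.

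All 9 genes had every AST sample above every A-iSC sample, by 3.91 to 153 times in mean FPKM. Among all 14087 genes with a mean of at least 1 FPKM in either group, 33.9% were lower in A-iSCs with no overlap. Since the 9 genes were picked for this pattern, nothing is read from that count. Their median difference of mean log2(FPKM + 1) was -3.60, beside -0.06 over all genes tested. Summed over the 9 genes, the level was 3309 ± 421.5 FPKM in ASTs (SD, n = 3) and 163 ± 36.4 in A-iSCs, with 53.7 ± 26.4 in P56-NPCs and 59.7 ± 6.31 in P0-NPCs. The P56-NPC sums were 39.2 and 37.7 FPKM in replicates 1 and 2 and 84.2 in replicate 3. The 9 genes together took 0.882% ± 0.063 of all fragments in ASTs and 0.0727% ± 0.0090 in A-iSCs, a share that does not depend on how the table was scaled.

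**Figure D1:**
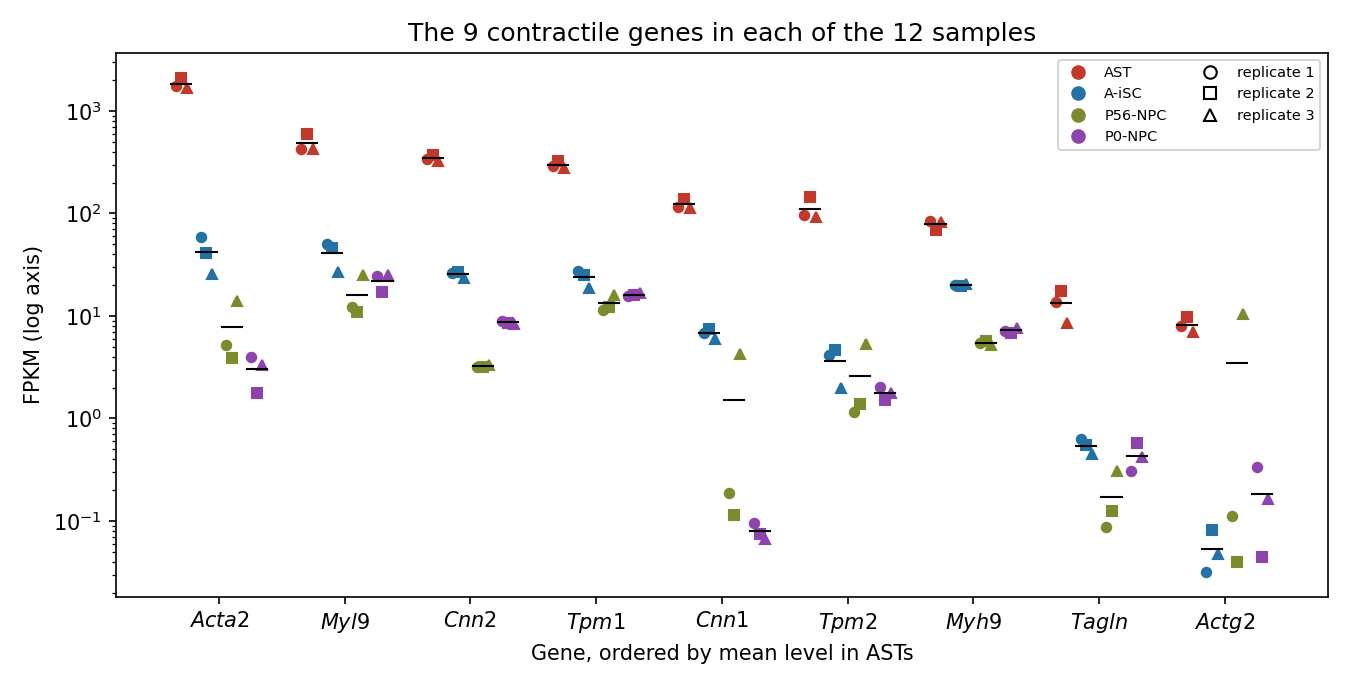
FPKM on a log axis of the 9 genes in each of the 12 samples, with genes ordered by their mean in ASTs, colours for groups, symbols for replicates and a short line at each group mean. AST points lie above all A-iSC points for every gene, and P56-NPC replicate 3 (triangles) stands above its partners for Cnn1 and Actg2, where it reaches 4.22 and 10.4 FPKM.

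Acta2 encodes the smooth muscle alpha actin of the thin filament and was the highest of the 9 genes in ASTs. Its level was 1742, 2113 and 1690 FPKM in the 3 AST samples and 58.6, 40.9 and 25.5 in the A-iSCs. It was 5.22, 3.92 and 14.1 FPKM in P56-NPCs and 4.001, 1.77 and 3.34 in P0-NPCs. The AST samples were thus far above all others, and the P56-NPC and P0-NPC ranges overlapped. In AST samples Acta2 ranked 12 to 17 among all protein-coding genes by FPKM, against 677 to 1715 in A-iSCs, 3378 to 8036 in P56-NPCs and 7898 to 10576 in P0-NPCs. The mean was 44.4 times higher in ASTs than in A-iSCs (log2 difference of A-iSCs over ASTs -5.51 ± 0.35, SE). Set against Actb, the cytoplasmic beta actin, Acta2 stood at 1.11 ± 0.17 times its FPKM in ASTs and at 0.0635 ± 0.0098 times in A-iSCs (SD, n = 3). Acta2 lies at chr19:34241090-34255590 on the minus strand, and no other gene of the table overlaps it.

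Actg2 encodes the gamma actin of visceral smooth muscle and was the lowest of the 9 genes in ASTs. It stood at 7.93, 9.69 and 6.99 FPKM in the AST samples and at 0.0319, 0.0810 and 0.0479 in the A-iSCs, where each sample held only 1 to 3 fragments. The ratio of ASTs to A-iSCs was 153 in mean FPKM, and the ratio of the pooled fragments, scaled to library size, was 151.6 with a 95% counting interval of 69.3 to 414.4. Its values in P56-NPCs were 0.111, 0.0400 and 10.4 FPKM, and those in P0-NPCs were 0.337, 0.0441 and 0.163. The library with 10.4 FPKM is P56-NPC replicate 3, which lay above every AST sample. The other P56-NPC samples held only 3 and 1 fragments. Actg2 lies at chr6:83512905-83536265 on the minus strand.

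Tpm1 and Tpm2 encode tropomyosins, the coiled coils that lie along actin and set which proteins can bind it. Tpm1 was at 289, 329 and 275 FPKM in ASTs, at 27.6, 25.1 and 18.7 in A-iSCs, at 11.6, 12.3 and 16.0 in P56-NPCs and at 15.8, 15.9 and 16.8 in P0-NPCs. Tpm2 was at 96.8, 144 and 92.3 FPKM in ASTs, at 4.20, 4.64 and 1.96 in A-iSCs, at 1.15, 1.39 and 5.32 in P56-NPCs and at 2.04, 1.51 and 1.78 in P0-NPCs. Both genes had no A-iSC value near an AST value, but Tpm2 ranges in A-iSCs, P56-NPCs and P0-NPCs ran into each other. ASTs were higher than A-iSCs by 12.5 times for Tpm1 and by 30.9 times for Tpm2. Tpm1 lies at chr9:67022590-67049406 and Tpm2 at chr4:43514711-43523765, both on the minus strand.

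Cnn1, the calponin of mature smooth muscle, and Cnn2, a calponin with wider expression, bind actin and slow myosin. Cnn1 was at 114.7, 139.9 and 113 FPKM in ASTs and at 6.85, 7.52 and 6.00 in A-iSCs. In P0-NPCs it was at 0.0959, 0.0753 and 0.0663 FPKM, which is 5 to 6 fragments a sample, and in P56-NPCs at 0.189, 0.114 and 4.22. Few fragments thus lay on Cnn1 in the NPC samples, but P56-NPC replicate 3 stood far above its partners, which held 9 and 5. The AST mean was 18.1 times that of A-iSCs and 1548 times that of P0-NPCs. From the pooled fragments the latter ratio has a 95% counting interval of 986 to 2711. Against P56-NPCs it was 81.4 times higher with replicate 3 and 808 times higher without it, where the interval is 479.9 to 1474.

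Cnn2 was at 342, 369 and 324 FPKM in ASTs, at 26.1, 26.9 and 23.3 in A-iSCs, at 3.21, 3.17 and 3.36 in P56-NPCs and at 9.03, 8.60 and 8.43 in P0-NPCs. It was one of 3 genes, with Cnn1 and Myh9, whose 4 groups did not overlap at all, and its replicates were close in every group. ASTs were 13.6 times higher than A-iSCs. Cnn1 lies at chr9:22099216-22109630 and Cnn2 at chr10:79988584-79996062, both on the plus strand.

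Tagln, which encodes transgelin (SM22 alpha), an early marker of smooth muscle, was low next to the others. It stood at 13.7, 17.6 and 8.61 FPKM in ASTs, at 0.624, 0.550 and 0.450 in A-iSCs, at 0.0869, 0.125 and 0.305 in P56-NPCs and at 0.308, 0.570 and 0.420 in P0-NPCs. The AST samples were well apart from the rest, 24.6 times above A-iSCs in the mean, and A-iSCs and P0-NPCs overlapped. Tagln lies at chr9:45929619-45936058 on the minus strand and overlaps Pcsk7 and Gm48529 on the plus strand, of which the higher reached 6.87 FPKM. No source used here says that strand was kept or how fragments on overlapping genes were counted. The low Tagln values may therefore hold fragments of these genes or lack fragments of Tagln.

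Myl9 encodes the regulatory light chain of smooth muscle and non-muscle myosin, the switch of contraction. It was at 429.7, 601 and 423 FPKM in ASTs, at 50.9, 45.9 and 27.03 in A-iSCs, at 12.2, 11.0 and 25.2 in P56-NPCs and at 24.3, 17.1 and 24.9 in P0-NPCs. Only the ranges of P56-NPCs and P0-NPCs overlapped, and the highest P56-NPC value was again replicate 3. The AST mean was 11.7 times that of A-iSCs. Myl9 lies at chr2:156775420-156781658 on the plus strand.

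Myh9 encodes the heavy chain of non-muscle myosin IIA, which is made in most cells. Its values were 84.9, 68.4 and 82.4 FPKM in ASTs, 20.1, 19.6 and 20.5 in A-iSCs, 5.47, 5.64 and 5.25 in P56-NPCs and 7.22, 6.88 and 7.62 in P0-NPCs. The 4 groups were apart, yet the step from ASTs to A-iSCs was 3.91 times, the smallest of the 9 genes (log2 difference -1.91 ± 0.10, SE). Myh9 lies at chr15:77760587-77842175 on the minus strand and overlaps the small gene Gm22107 on the same strand.

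Within groups, most of the contractile genes deviated in the direction of their length class in the 2 libraries named above. In AST replicate 2, Tagln, Tpm2, Myl9 and Acta2 lay 0.65, 0.61, 0.50 and 0.30 above the mean of the other AST replicates on the log2(FPKM + 1) scale, while the long gene Myh9 lay at -0.29. Tpm1, which is also longer than 6000 bases, was an exception at 0.22, beside a median of -0.16 for its class. In A-iSC replicate 3, Acta2, Tpm2 and Myl9 lay at -0.92, -0.87 and -0.82, below the medians of their length classes, and Myh9 at 0.04. Tpm1 again went against its class there, at -0.47 beside a median of 0.26. These differences within a group were small beside the steps between ASTs and A-iSCs. Without A-iSC replicate 3 the median difference of the 9 genes was -3.45, and over all 6 samples left out in turn it ran from -3.72 to -3.45.

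**Figure D2:**
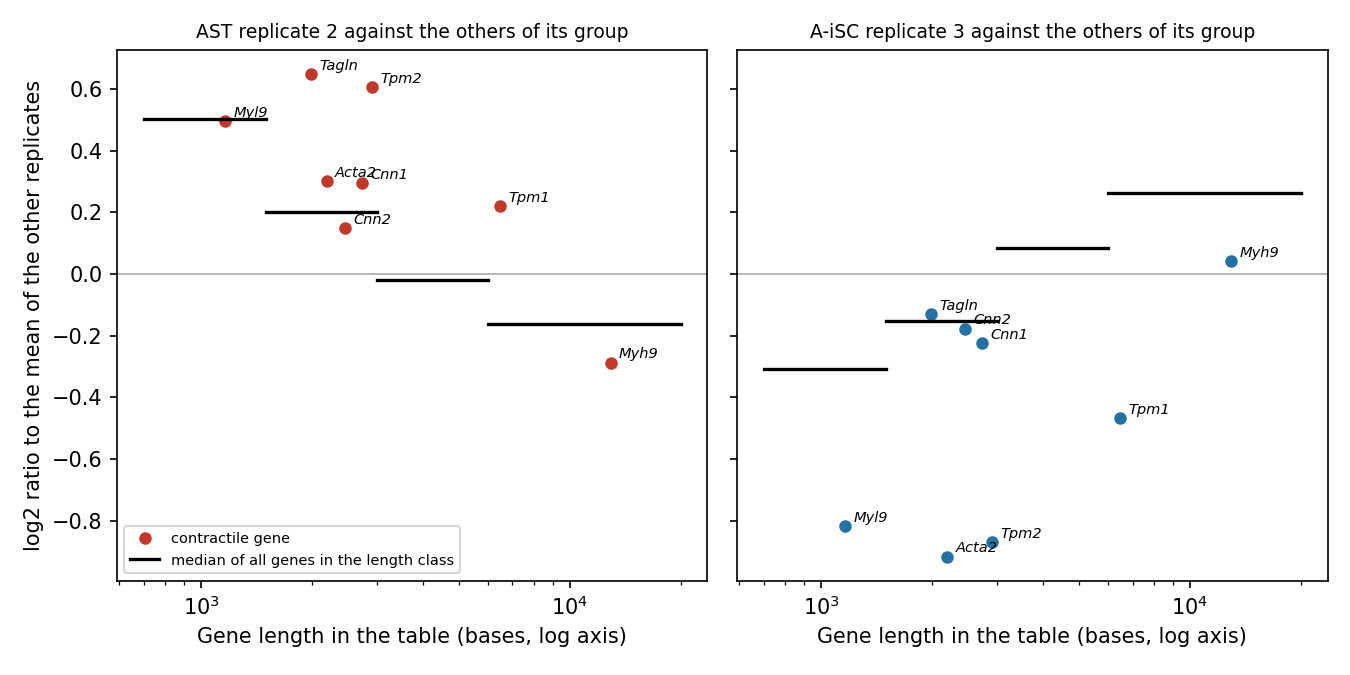
Log2 ratio of 1 replicate to the others of its group (vertical) against gene length in bases on a log axis, for AST replicate 2 (left) and A-iSC replicate 3 (right); points are 8 of the 9 genes (Actg2, with 1 to 3 fragments in A-iSCs, is not drawn) and lines are medians of all genes with a mean of at least 10 FPKM in 4 length classes. Acta2 lies at 0.30 on the left and at -0.92 on the right, and Myh9 at -0.29 and 0.04.

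The place of each gene within its own family does not depend on the scaling of the libraries. Acta2 and Actg2 made up 42.1% ± 1.19 of the summed FPKM of 6 actin genes in ASTs (SD, n = 3), 4.49% ± 0.69 in A-iSCs, 0.99%, 0.71% and 4.304% in the P56-NPC samples, and 0.45%, 0.20% and 0.31% in the P0-NPC samples. The rest was nearly all cytoplasmic actin, Actb and Actg1. Cnn1 and Cnn2 held 50.1 to 50.8% of calponin FPKM in ASTs and 8.86 to 12.8% in A-iSCs, with Cnn3 as the remainder. Tpm1 and Tpm2 held 61.7 to 69.5% of tropomyosin FPKM in ASTs and 21.8 to 31.0% in A-iSCs.

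Transgelin and the regulatory light chain also held smaller shares in A-iSCs, and the heavy chain did not follow. By the deposited values, Tagln was a minor transgelin in every group. It held 3.38 to 5.43% of its family in ASTs and 0.509 to 0.575% in A-iSCs. Tagln2 was more abundant in every group, and Tagln3 in every group but ASTs. The overlap of Tagln with other genes, described above, limits how far these shares can be read. Myl9 was the leading regulatory light chain in all samples, with 73.7 to 74.4% in ASTs and 55.8 to 60.3% in A-iSCs, ranges that did not overlap. Myh9 held 45.7 to 50.2% of type II heavy chains in ASTs and 40.8 to 49.4% in A-iSCs, ranges that overlapped, against 16.5 to 19.9% in the NPC samples. The share of Myh9 in its family thus overlapped between ASTs and A-iSCs, whereas the shares of Tagln, Myl9, the 2 actins, the 2 calponins and the 2 tropomyosins were each higher in every AST sample than in every A-iSC sample. The coding sequences of Acta2 and the other actins are 81.5 to 85.4% identical over aligned positions (GENCODE M21), and their transcripts share runs of up to 56 bases, so any longer stretch differs in at least 1 base.

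**Figure D3:**
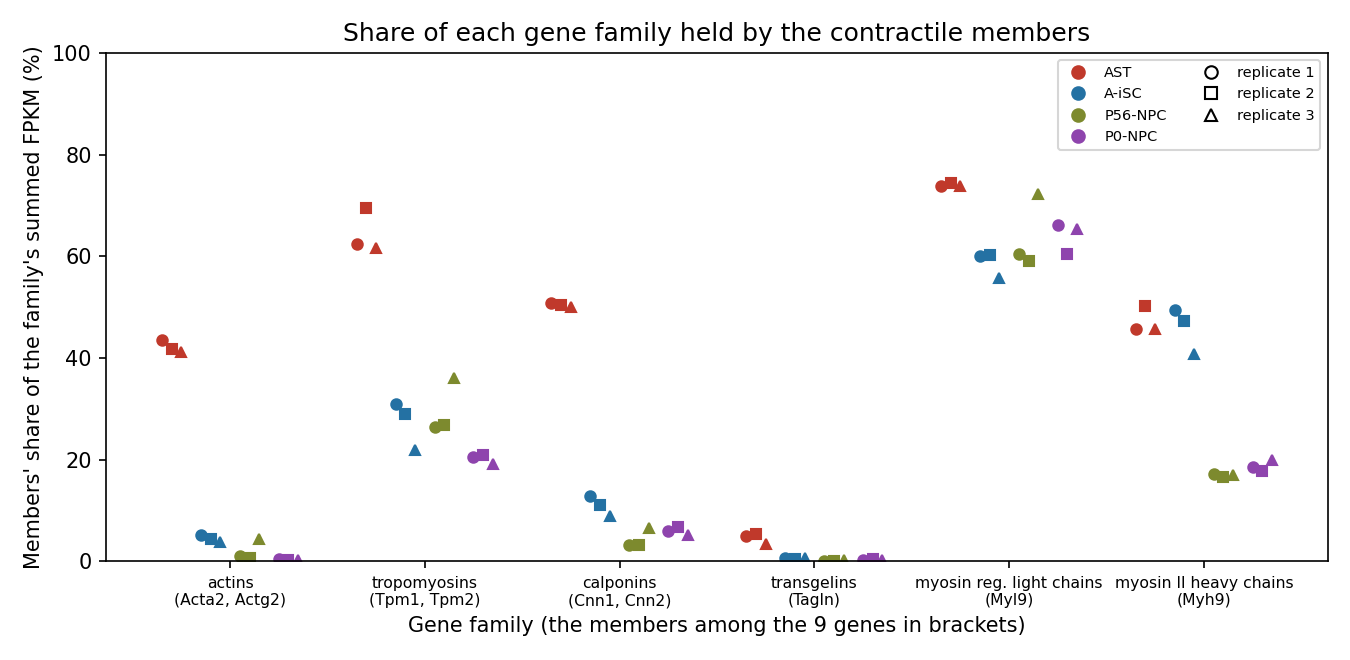
Share, in percent, of each family's summed FPKM held by the genes named in brackets, for each of the 12 samples (colours for groups, symbols for replicates). Actin, calponin, tropomyosin, transgelin and light chain shares are highest in the 3 AST samples, and the Myh9 share of ASTs (45.7 to 50.2%) overlaps that of A-iSCs (40.8 to 49.4%).

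Both NPC groups were also below ASTs. Of the 9 genes, 8 had every P56-NPC sample below every AST sample (Actg2 overlapped), beside 41.3% of all genes tested, and the median log2 difference was -4.90. Without P56-NPC replicate 3 all 9 did, beside 42.9%, with a median of -5.25. All 9 had every P0-NPC sample below every AST sample, beside 42.1%, with a median of -4.39. These comparisons use the same AST samples as the comparison with A-iSCs. Between spheres and NPCs the differences were smaller. In A-iSCs over P56-NPCs, 7 genes were higher with no overlap, beside 34.7% of all genes, and Tpm2 and Actg2 overlapped. Without P56-NPC replicate 3, 8 genes were higher with no overlap, beside 36.6%, and only Actg2 overlapped. In A-iSCs over P0-NPCs, 6 genes were higher with no overlap, beside 34.4%, and Tagln, Tpm2 and Actg2 overlapped.

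Cnn1, Acta2 and Cnn2 were the genes in which spheres stood farthest above NPCs. Mean Acta2 in A-iSCs was 13.7 times that of P0-NPCs and 5.38 times that of P56-NPCs, or 9.12 times without P56-NPC replicate 3. Mean Cnn1 in A-iSCs was 85.8 times that of P0-NPCs and 4.51 times that of P56-NPCs, or 44.8 times without replicate 3, with 95% counting intervals of 53.8 to 148.8 for the first and 26.2 to 80.9 for the last. Cnn2 was 2.93 and 7.84 times higher, and Myh9 2.77 and 3.68 times higher, in A-iSCs than in P0-NPCs and P56-NPCs. Tpm1 differed least among the genes that did not overlap, by 1.47 and 1.79 times. Of the 9 genes, 8 reached a mean of 1 FPKM in A-iSCs or P56-NPCs (Tagln did not; without P56-NPC replicate 3 Actg2 did not either), and 7 in A-iSCs or P0-NPCs (neither Tagln nor Actg2 did).

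**Figure D4:**
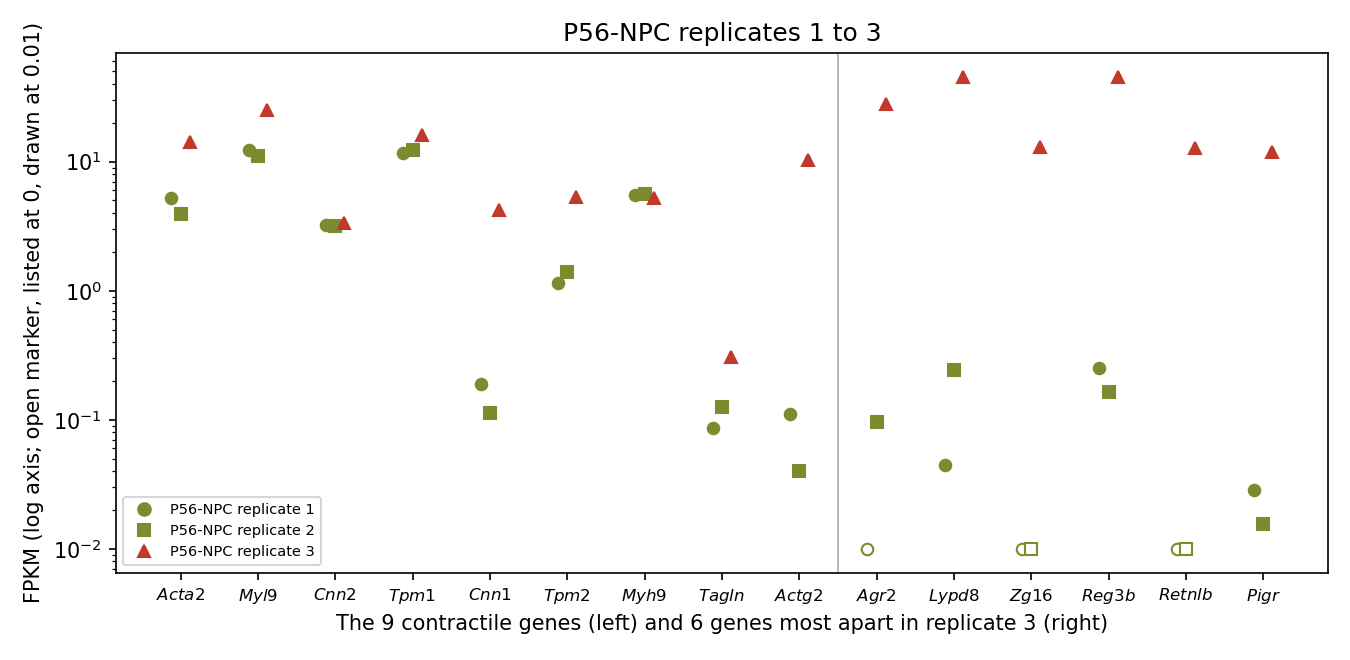
FPKM on a log axis of the 9 genes (left of the line) and of 6 genes that stand most apart in P56-NPC replicate 3 (right), for the 3 P56-NPC samples; open symbols are genes listed at 0 and are drawn at 0.01. Replicate 3 is at 10.4 FPKM for Actg2 and 4.22 for Cnn1, and close to its partners for Cnn2 and Myh9.

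Markers of the cells in which these genes are best known did not all follow them. Of 8 markers of mural cells, the pericytes and smooth muscle of vessels, 3 reached a mean of 1 FPKM in ASTs (Pdgfrb, Notch3, Cspg4), and the list summed to 15.6 to 21.8 FPKM there, to 8.79 to 12.2 in A-iSCs and to 19.2 to 21.9 in P56-NPCs. In P0-NPCs all 8 reached it and the sum was 124.6 to 139.2, with Vtn (51.2 to 61.4 FPKM) and Rgs5 (35.4 to 42.8) highest. Acta2 in P0-NPCs was at 1.77 to 4.001 FPKM. Pdgfrb, the highest of the list in ASTs, was at 9.32 to 12.2 FPKM there and at 2.41 to 3.31 in A-iSCs. Cspg4 was at 2.79 to 3.06 FPKM in ASTs and 1.56 to 2.19 in A-iSCs. In P56-NPCs Cspg4 had the highest mean of the list, at 5.10 to 6.29 FPKM. Notch3 overlapped between ASTs and A-iSCs, at 3.04 to 6.50 and 2.83 to 5.86 FPKM. The pericyte genes Rgs5 (0.190 to 0.391 FPKM), Kcnj8, Abcc9 and Higd1b were at or near 0 in ASTs. Higd1b was listed at 0 in all 3 AST samples.

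Smooth muscle myosin heavy chain Myh11, the most specific marker of that tissue, was at 0.118 to 0.182 FPKM in ASTs. Markers of fibroblasts summed to 148 to 200 FPKM in ASTs and 10.7 to 12.9 in A-iSCs, with 25.4 to 28.6 in P56-NPCs and 122.7 to 135 in P0-NPCs. Most of the AST sum was collagen Col1a1 (131 to 178 FPKM), with Col1a2 at 13.4 to 16.9, while the fibroblast genes Dcn and Lum were at 0.286 or less. Markers of striated muscle summed to 0.312 to 4.86 FPKM over all 12 samples. Endothelial markers summed to 4.456 to 4.504 FPKM in ASTs and 72.8 to 74.8 in P0-NPCs, and neuron markers to 41.8 to 57.3 in ASTs and 747.6 to 901 in P0-NPCs. The part of such cells in the levels of the 9 genes was not tested.

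Lists of 83 further genes of the same machinery were tested by limma on log2(FPKM + 1), with p-values adjusted over all genes tested by the Benjamini-Hochberg method and genes called at an adjusted p under 0.05. Of these, 74 could be tested in A-iSCs over ASTs, and 56 were called lower, 2 higher and 16 neither. Over all 14087 genes tested, 29.6% were called lower and 25.2% higher. The median difference of the 74 genes was -1.19, beside -0.06 over all genes tested. With FPKM rescaled to the fragments counted on genes, 49 were called lower and 2 higher, and the share of higher genes among all calls was 59.7% in place of 46.0%. The lists were drawn up with earlier results of these data known, so the counts describe them and are no independent evidence of a direction.

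**Figure D5:**
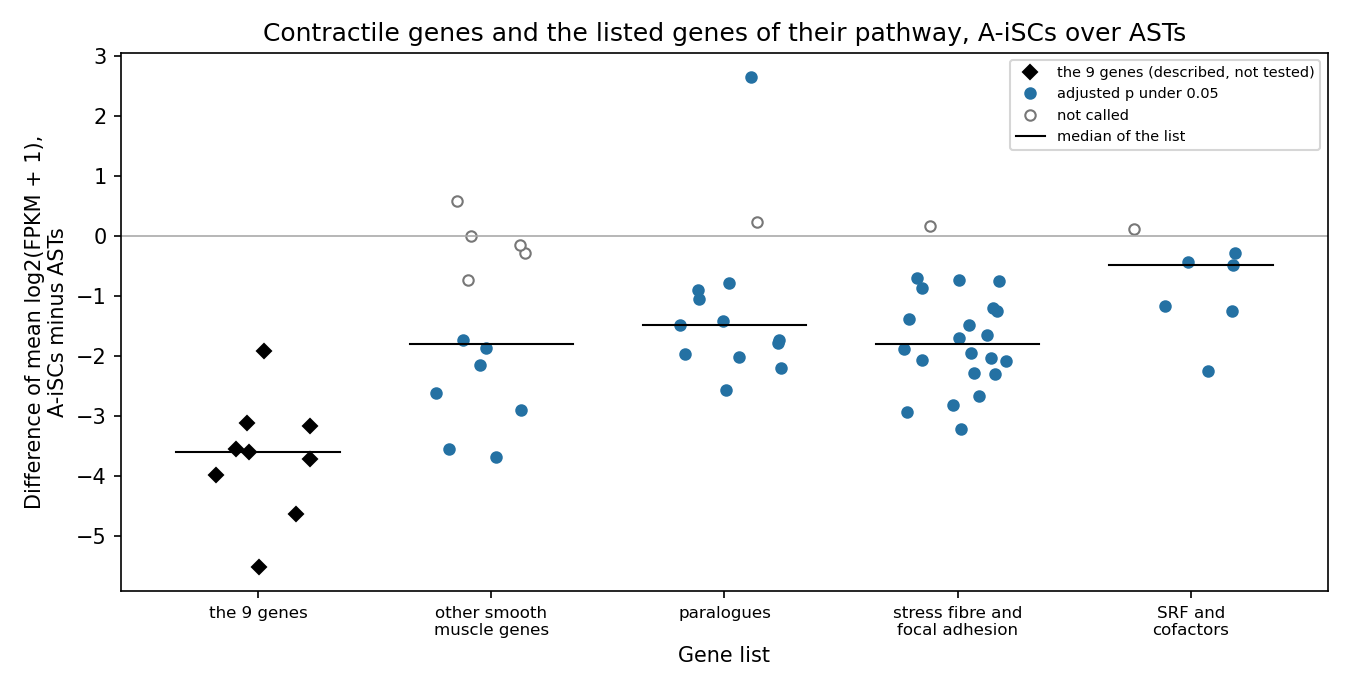
Difference of mean log2(FPKM + 1), A-iSCs minus ASTs, for the 9 genes (diamonds, not tested) and for the tested genes of 4 of the 5 lists (filled where called at an adjusted p under 0.05, limma), with a line at each median. The 9 genes lie between -5.51 and -1.91, and in the stress fibre list 21 of 22 genes are called lower.

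Stress fibre and focal adhesion genes, which bundle actin and tie it to integrins, were the most uniform list, with 21 of 22 called lower. The alpha actinin Actn1 fell from 179.8 ± 6.52 to 22.9 ± 2.74 FPKM (SD, n = 3; log2 difference -2.92 ± 0.13, SE; limma, adjusted p = 6.21e-06). The filamin Flnc fell from 47.7 ± 8.08 to 5.92 ± 0.87, and Pdlim1, an adaptor on alpha actinin, from 14.6 ± 0.99 to 1.46 ± 0.25. At the highest levels, Actn4 fell from 189 ± 15.1 to 38.1 ± 1.61 FPKM and Flna from 178 ± 34.7 to 46.9 ± 5.42. The one gene not called was paxillin (Pxn), at 7.81 ± 0.67 FPKM in ASTs and 8.90 ± 1.25 in A-iSCs.

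Of 13 tested paralogues of the 9 genes, 11 fell and 1, Tagln3, rose. Tagln3, a transgelin of neurons, went from 2.27 ± 0.20 to 19.4 ± 0.89 FPKM (limma, adjusted p = 4.82e-06), the opposite of Tagln. The cytoplasmic actins also fell, Actb from 1716 ± 519 to 672 ± 279 FPKM and Actg1 from 835 ± 175 to 190.7 ± 84.2, which is 2.55 and 4.38 times. The call of Actb was lost without AST replicate 2 (limma, adjusted p = 0.0565). The light chain Myl12a fell 6.08 times and the heavy chain Myh10 (myosin IIB) 4.21 times.

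Other smooth muscle genes were split. Of 19, only 12 reached the level needed for a test, and of those 7 fell and 5 were not called. Cald1 (caldesmon, an actin and myosin binder) fell from 126.7 ± 31.1 to 9.12 ± 3.56 FPKM, Fhl2 (a LIM cofactor) from 26.3 ± 2.02 to 1.34 ± 0.28, Lmod1 (leiomodin, which nucleates actin) from 14.7 ± 1.47 to 1.10 ± 0.04, and Smtn (smoothelin) from 12.1 ± 1.52 to 1.13 ± 0.29. Fhl1 fell from 329 ± 28.8 to 89.2 ± 0.63 FPKM. Csrp1, at 134 ± 44.1 FPKM in ASTs and 82.2 ± 36.5 in A-iSCs, was not called, with overlapping groups (limma, adjusted p = 0.13), but was called lower without A-iSC replicate 3 (adjusted p = 0.0235). Myh11 and Mylk, the myosin light chain kinase of smooth muscle, stayed under a mean of 1 FPKM in both groups and were not tested. Mylk was at 0.381 to 0.442 FPKM in ASTs and 0.258 to 0.418 in A-iSCs.

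Of 7 tested genes for SRF and its cofactors, 6 were called lower on the deposited scale and 3 (Srf, Elk3 and Klf4) with FPKM rescaled to the fragments counted on genes. Srf went from 22.4 ± 3.53 to 8.87 ± 1.58 FPKM (log2 difference -1.25 ± 0.17, SE; limma, adjusted p = 0.00069). Mrtfa was at 5.96 ± 1.04 FPKM in ASTs and 3.97 ± 0.25 in A-iSCs (log2 difference -0.48; limma, adjusted p = 0.022), and Mrtfb at 3.24 ± 0.15 and 2.50 ± 0.14 (-0.28; limma, adjusted p = 0.049). Rescaled, these differences were -0.30 and -0.12 and were not called (limma, adjusted p = 0.125 and 0.38). The call of Mrtfa was also lost without AST replicate 1, AST replicate 3 or A-iSC replicate 2 (limma, adjusted p from 0.064 to 0.091), and that of Mrtfb without any 1 sample other than A-iSC replicate 3 (0.061 to 0.165). Elk3, a partner of SRF at other targets, fell 2.36 times. Klf4, known as a brake on the smooth muscle programme, fell as well, from 28.9 ± 2.51 to 5.41 ± 1.35 FPKM. Myocd (myocardin), the cofactor of muscle proper, was at 0.0587 FPKM or less in ASTs, listed at 0 in all A-iSC samples and not tested.

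Against the NPC groups the same lists gave mixed directions. Of 78 genes tested in P56-NPCs over ASTs, 55 were lower and 14 higher (39.8% and 39.1% of all genes), and of 78 in P0-NPCs over ASTs, 59 were lower and 12 higher (40.9% and 38.1%). In A-iSCs over P56-NPCs, 33 of 77 were higher and 20 lower (30.1% and 30.9% of all genes), and in A-iSCs over P0-NPCs 33 of 76 were higher and 16 lower (31.5% and 33.6%). With FPKM rescaled to the fragments counted on genes, the counts were 60 lower and 9 higher in P56-NPCs over ASTs, 53 lower and 15 higher in P0-NPCs over ASTs, and 44 higher and 11 lower in A-iSCs over P56-NPCs. In the last of these, 73.1% of the calls among all genes were then higher, in place of 49.4%. On the deposited scale, the stress fibre list gave 13 higher and 4 lower of 21 against P56-NPCs (16 and 2 rescaled) and 12 higher and 1 lower of 21 against P0-NPCs. Other smooth muscle genes gave 4 higher and 6 lower of 16 against P56-NPCs, and 6 higher and 8 lower of 16 against P0-NPCs. On that scale Srf was lower in A-iSCs than in P56-NPCs (log2 difference -0.69, limma adjusted p = 0.0032), but rescaled the difference was -0.17 and was not called (limma adjusted p = 0.265). It was also lower than in P0-NPCs (-0.38, limma adjusted p = 0.039), a call that was lost without any 1 sample other than A-iSC replicate 3 (limma adjusted p from 0.084 to 0.129).

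The 5 genes whose pattern over the 12 samples was most like that of the 9 genes were Tmem171, Rgs16, Psmc3, Crct1 and Actn4. Likeness was Pearson's r of log2(FPKM + 1) with the mean of the 9 standardised profiles, among 6795 other protein-coding genes with a mean of at least 10 FPKM in any group, and it ran from 0.995 for Tmem171 to 0.988 for Actn4. The 12 points fall into the 4 groups and share their libraries, so r mostly reflects the level of ASTs. Rgs16, a brake on G protein signals, was at 116 ± 4.04 FPKM in ASTs, 14.9 ± 0.79 in A-iSCs, 7.30 ± 0.70 in P56-NPCs and 7.61 ± 0.62 in P0-NPCs (SD, n = 3). Crct1 was at 122 ± 21.7 FPKM in ASTs and 1.69 ± 0.75 in A-iSCs and was listed at 0 in all NPC samples. Among the 9 genes, r with the shared profile, of which each is a part, ran from 0.793 for Actg2, the gene set apart by P56-NPC replicate 3, to 0.993 for Myl9.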

How the data were processed

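RNA of 12 samples was sequenced, 3 per group. Per the labels, RNA was taken up in Trizol and a NEBNext Ultra kit was used for the libraries. The authors deposited 1 table of FPKM per gene and sample with gene lengths. The submitters' processing notes name Bowtie 0.12.2 and mm8, but of the 55154 identifiers also in GENCODE M21, 54899 had its GRCm38 positions. How fragments were counted is not given in the sources used here. Value times gene length was a whole multiple of 1 step per sample (within 0.05), so fragments were recovered. The scale of the values implied libraries of 0.744 to 1.218 times the fragments counted, so the deposited FPKM were already scaled between samples.

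limma 3.58.1 (lmFit, eBayes with trend, R 4.3.3) was run on log2(FPKM + 1) for 2 groups at a time, over genes with a mean of at least 1 FPKM in either, two-sided, with Benjamini-Hochberg adjustment and calls under 0.05. The fit was tested on simulated data. Levels, shares and promoter searches used Python 3.11.15, with matplotlib 3.10.9 for figures. The 9 genes, the 5 gene lists and the marker lists were chosen with earlier results of these data known. Named in the text were, per list, up to 4 called genes with the largest difference of A-iSCs over ASTs and the 2 with the highest mean, plus set regulators. Some genes that this rule names, and the counts of 1 list on its own, are not reported here. Pcsk7, Pxn, the gut genes and the single markers were named after their values were seen. No replicate pair was alike within sampling noise (chi-square per degree of freedom 2.51 to 95.1). Alternatives were another scaling, pseudocount, filter, model, test and threshold, and leaving out each sample. No sample was left out of the main fits, and counting intervals cover counting error only.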

Additional observations from a re-analysis of the deposited data

How the results depend on the processing

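Log2 differences of the 9 genes in the 5 comparisons kept their sign in all 405 values under other scalings, another pseudocount and each sample left out; 361 moved by less than the spread between replicates and 44 by more. The median of the 9 genes moved by more than that spread as follows. With FPKM rescaled to fragments on genes it was -3.39 for A-iSCs over ASTs, -5.21 for P56-NPCs over ASTs and 1.87 for A-iSCs over P56-NPCs. With a pseudocount of 0.1 it was -4.15, -5.64 and, for P0-NPCs over ASTs, -5.01. Leaving out 1 sample at a time gave -3.72 to -3.45 for A-iSCs over ASTs, -5.25 to -4.69 for P56-NPCs over ASTs and 1.13 to 1.69 for A-iSCs over P56-NPCs. The log2 difference of Actg2 without P56-NPC replicate 3 was -3.09 in place of -1.95 for P56-NPCs over ASTs, and -0.03 in place of -1.16 for A-iSCs over P56-NPCs, both resting on 4 fragments in the P56-NPC samples left.

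Of the listed genes, 1 in place of 2 was called higher in A-iSCs over ASTs with upper-quartile scaling and at an adjusted p under 0.01, and 1 to 3 with 1 sample left out (1 without any AST replicate or without A-iSC replicate 2). Scaling by fragments gave 9 in place of 14 called higher in P56-NPCs over ASTs and 11 in place of 20 called lower in A-iSCs over P56-NPCs. The causes were not tested, but this scaling alone moved the median of all genes from -0.06 to 0.12, from -0.03 to -0.29, from -0.07 to 0.17 and from 0.03 to 0.47 in A-iSCs over ASTs, P56-NPCs over ASTs, P0-NPCs over ASTs and A-iSCs over P56-NPCs, and the share of calls that were higher from 46.0 to 59.7%, 49.5 to 39.1%, 48.2 to 58.2% and 49.4 to 73.1%. Upper-quartile scaling moved the medians of the 3 comparisons with ASTs to -0.17, -0.16 and -0.16, and the share of calls that were higher in A-iSCs over ASTs to 38.3%, the opposite way from scaling by fragments. Listed genes called lower in A-iSCs over ASTs numbered 46 to 60 over all alternatives, against 56. Over 24 tested differences of 22 listed genes named above, all 312 values under other fits kept their sign, 22 lost the call and 2 gained it, in 6 of the differences. Apart from those given above, the call was lost without the filter for Actb, Mrtfb and Srf in A-iSCs over P0-NPCs (limma, adjusted p = 0.0725, 0.086 and 0.064), and Csrp1 was called with all 4 groups in 1 fit (0.041).

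Replicate numbers were not taken as pairs, since same-numbered samples deviated together by r = -0.41, 0.35 and 0.45 in A-iSCs and ASTs and by -0.15 to 0.07 in the others. With the number as a replicate block, 53 listed genes were called lower and 2 higher in A-iSCs over ASTs, and Mrtfb there and Srf in A-iSCs over P0-NPCs were not called (limma, adjusted p = 0.095 and 0.065). Depth limits Actg2 in A-iSCs and P0-NPCs, which rests on 6 and 21 fragments, Cnn1 in P0-NPCs (17), Tagln in P56-NPCs (17) and, without P56-NPC replicate 3, Cnn1 (14), Tagln (7) and Actg2 (4) in P56-NPCs.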

Other observations

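In P56-NPC replicate 3 other genes of smooth muscle stood above both partners along with Actg2 and Cnn1. Desmin (Des), the intermediate filament of muscle, was at 4.11 FPKM there and at 0.0767 and 0.0996 in replicates 1 and 2. Myh11 was at 1.81 FPKM beside 0.0303 and 0.0984, and Mylk at 1.80 beside 0.823 and 0.719. Cnn2 and Myh9 were at 1.05 and 0.944 times the mean of the partners. These genes were chosen after their values were seen, and the source of the difference was not tested.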
